A study of Mus musculus with 6 samples.

Results

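The mitochondrial solute carriers of the SLC25 family were followed in inguinal white adipose tissue (iWAT), a subcutaneous fat depot, of mice without the zinc transporter ZIP13. They were taken as the genes whose mouse symbol is Slc25a and a number, without Slc25a20, named from the RefSeq transcript printed for each array probe. This gave 46 of the 21368 genes named on the array, and 55 probes. The arrays compared 3 WT samples with 3 Zip13-KO samples. WT mice carried an intact Slc39a13, the gene of ZIP13. Zip13-KO mice lacked several of its exons in every tissue, where a Neo cassette made in R1 ES cells took their place. All mice were 10 weeks old, had been backcrossed onto C57BL/6J for at least 7 generations, and ate powdered food because the knockout affects the teeth. The labels name a standard and a high-fat feed without saying which the array mice had. The study's legend gives as many mice of each genotype as there are arrays, but the labels do not tie an array to a mouse, so p-values measure the spread between these samples, which may be technical.

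SLC25 carriers are proteins of the mitochondrial inner membrane, with a few elsewhere in the cell, that exchange or import the substances the matrix needs. They move ADP and ATP, phosphate, the acids of the citric acid cycle, amino acids, nucleotides, vitamin-derived cofactors and iron. UCP1, the uncoupling protein that lets brown and beige fat cells release energy as heat, belongs to the same family under another name. In white adipocytes the citrate carrier exports citrate that is the carbon source of new fatty acids.

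The 6 arrays lay on 1 slide and were scanned together, with the WT arrays and Zip13-KO replicate 1 in the first slide column and Zip13-KO replicates 2 and 3 in the second. The median processed signal was 39.2 to 40.6 on the WT arrays and 33.2 to 35.0 on the Zip13-KO arrays before quantile normalization, 62.5% to 63.2% and 58.8% to 60.4% of spots were well above background, and no spot was saturated. With 3 arrays of each genotype, the number of arrays limits the precision. Values below are quantile normalized log2 intensities, changes are Zip13-KO minus WT on that scale, and a gene was called at a limma adjusted p under 0.05 with a change over 1.5-fold. The targeted gene Slc39a13 gave 11.29, 10.87 and 10.72 in WT and 6.76, 6.66 and 6.47 in Zip13-KO, and fell by 4.33 (SE 0.17, limma adjusted p = 0.00128).

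More carriers rose than fell in Zip13-KO iWAT. Of the 46 carriers, 40 were well above background on the 3 arrays of at least 1 genotype and were tested. Of these, 15 were called higher, 6 were called lower and 19 were not called. Over all 15306 genes tested, 10.3% were called higher and 8.38% lower, against 37.5% and 15% of the carriers. The median change of the carriers tested was 0.38, where the median of all genes was -0.0005. The median size of a change without its sign was 0.61 among the carriers and 0.28 among all genes. The changes ran from -1.24 for Slc25a43 to 2.32 for Slc25a48, and these 2 carriers passed the filter only through the genotype in which they were higher. The other 38 were well above background on all 6 arrays, and 14 of them were called higher and 5 lower. On the same arrays all 10 brown and beige adipocyte markers were called higher and 10 of 12 macrophage markers lower, and the part of these and the other markers below in the changes of the carriers was not tested. In bulk tissue, fewer cells of a type and less RNA per cell cannot be told apart.

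The groups separated for most carriers. Every Zip13-KO array lay above every WT array for 25 of the 40 carriers and below every WT array for 7, against 29.2% and 25.9% of all genes, and the genotypes overlapped for 8. A further 6 carriers had a limma adjusted p under 0.05 with a change too small to be called, as had 2423 of the 15306 genes. At any fold, 27 of the 40 carriers had an adjusted p under 0.05, against 34.5% of all genes. The genotypes did not overlap for any of the 21 called carriers, so Zip13-KO replicate 1, the only Zip13-KO array in the slide column of the WT arrays, lay outside the WT range for each of them by construction. With the slide column as a block no carrier and only 7 of the 15306 genes passed, since that fit rests on 1 Zip13-KO array, and the adjusted p of the called carriers then began at 0.0578. Without Zip13-KO replicate 1 there were 10 carriers higher and 5 lower, and without Zip13-KO replicate 2 there were 12 and 3.

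**Figure D1:**
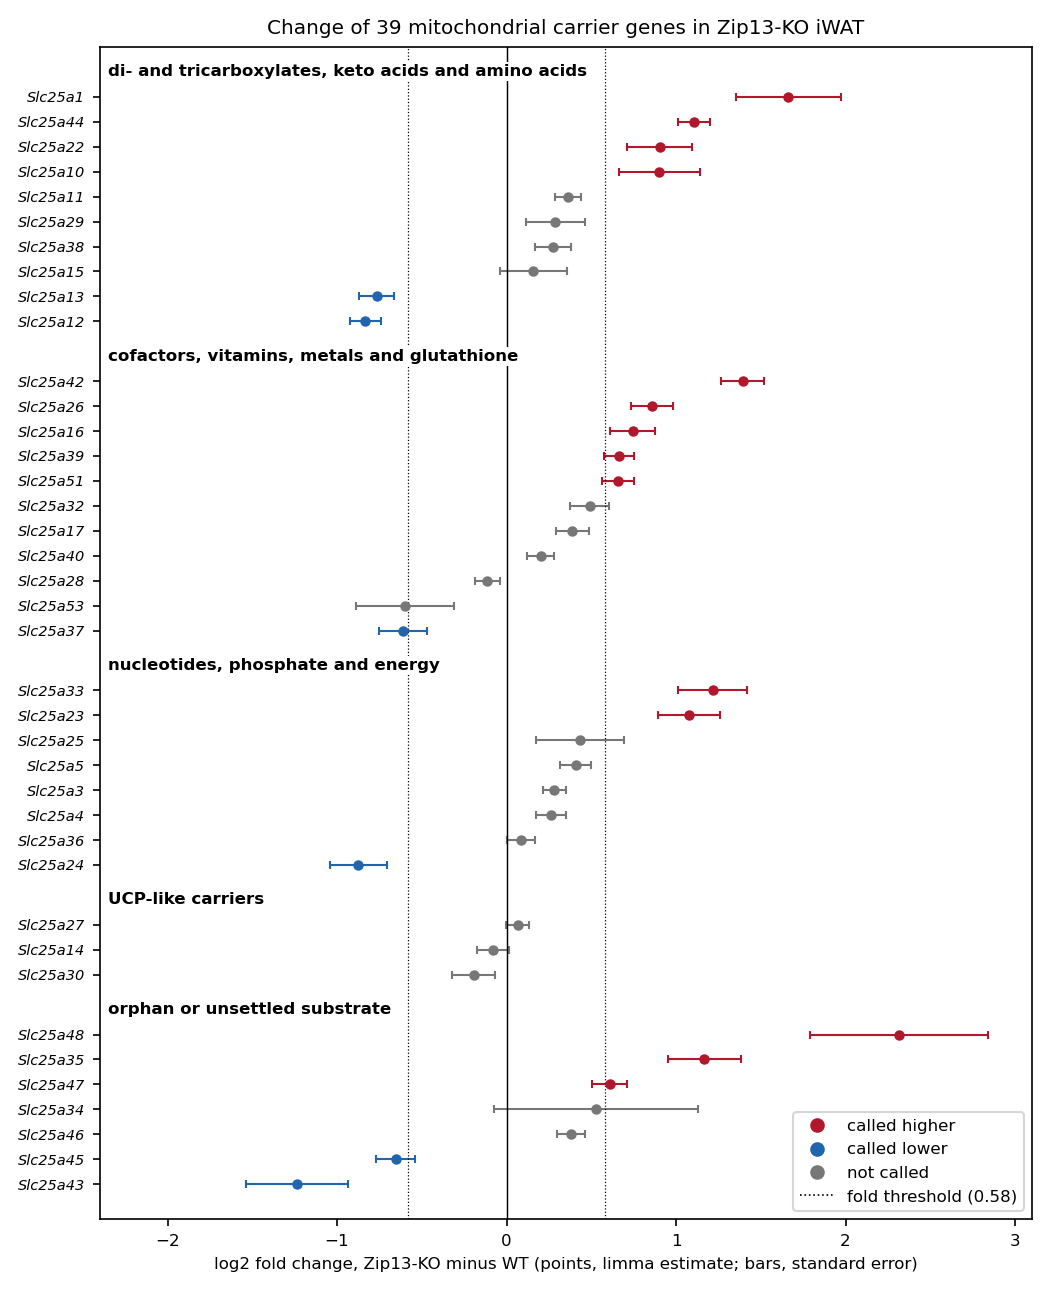
Change of 39 of the carriers tested (x axis, log2 fold change, Zip13-KO minus WT) by role group (y axis), with limma estimates as points and standard errors as bars, from 3 arrays of each genotype. Red points (14) lie right of the dotted 1.5-fold line and blue points (6) left of it, with members on both sides in the carboxylate, cofactor, nucleotide and orphan groups and none called among the UCP-like carriers.

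Promoters were looked at for short sequence motifs, because carriers of different roles rose together. RefSeq promoter windows (GRCm38.p6) were at hand for 35 of the 46 carriers, of which 10 were called higher and 5 lower. A gene was counted for a motif if any of its promoters held it in the 250 bases before the start site. The E-box CACGTG, which reads the same on both strands, was counted in 7 of the 35 carriers (20.0%). Over all 27025 genes with a promoter, not only those tested, the share was 6.86%. The E-box stood in 2 of the 10 carriers called higher, Slc25a1 and Slc25a33, and in 1 of the 5 called lower, Slc25a13. The others with it were Slc25a14, Slc25a15 and Slc25a36, which were not called, and Slc25a31, which was not tested. The 3 windows of called carriers are shown 5′ to 3′ on the gene's strand, with the E-box in capitals, since the same letters occur in carriers that moved in opposite directions.
Slc25a1, chr16:17928220-17928469, minus strand: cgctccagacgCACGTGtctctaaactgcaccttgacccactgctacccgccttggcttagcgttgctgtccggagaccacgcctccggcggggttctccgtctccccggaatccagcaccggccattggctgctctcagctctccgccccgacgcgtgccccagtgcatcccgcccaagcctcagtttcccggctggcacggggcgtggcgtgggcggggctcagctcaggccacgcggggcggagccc
Slc25a33, chr4:149774268-149774517, minus strand: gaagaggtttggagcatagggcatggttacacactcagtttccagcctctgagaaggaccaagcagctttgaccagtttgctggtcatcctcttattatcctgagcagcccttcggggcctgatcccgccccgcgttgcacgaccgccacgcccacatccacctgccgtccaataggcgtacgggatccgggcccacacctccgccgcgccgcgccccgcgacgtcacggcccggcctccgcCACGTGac
Slc25a13, chr6:6217174-6217423, minus strand: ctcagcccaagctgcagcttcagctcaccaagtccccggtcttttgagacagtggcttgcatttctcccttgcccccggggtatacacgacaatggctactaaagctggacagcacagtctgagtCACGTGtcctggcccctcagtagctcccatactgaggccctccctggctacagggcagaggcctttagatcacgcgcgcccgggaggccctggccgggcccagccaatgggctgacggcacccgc
The E-box began 239 bases before the start site in Slc25a1, 8 bases before it in Slc25a33 and 125 bases before it in Slc25a13. Searched on both strands in the same way, the GC box GGGCGG was found in 24 carriers (68.6%, against 35.4% of the 27025 genes) and CCAAT in 18 (51.4%, against 37.5%). The cAMP response element TGACGTCA was found in Slc25a25 and Slc25a36 (1.77% of the 27025 genes), and the oestrogen-related receptor element AAGGTCA in Slc25a34 (4.70%). The NRF-2 motif CCGGAAGTG, the C/EBP motif TTGCGCAA, the NRF-1 palindrome and the direct repeat bound by PPAR receptors were found in none of the 35 carriers. Of the 27025 genes, 1.60%, 0.185%, 0.877% and 0.0407% held them. A match is a description of letters and not a binding site, and no match says only that these letters are not in this window.

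Among the carriers of di- and tricarboxylates, keto acids and amino acids, 10 of 13 were tested, with a median change of 0.33. Of those tested, 4 were called higher (40%) and 2 lower (20%), against 10.3% and 8.38% of all genes. The 4 that rose carry citrate, dicarboxylates, glutamate and branched-chain amino acids, and the 2 that fell are both aspartate/glutamate carriers. Slc25a1 (NM_153150), the citrate carrier whose window heads the 3 above, read 13.24, 13.76 and 14.47 in WT and 15.63, 15.59 and 15.24 in Zip13-KO. The genotypes did not overlap, WT replicate 1 was lowest, and the change was 1.66 (SE 0.31, 3.17-fold, limma adjusted p = 0.0127). Slc25a44 (NM_178696), a carrier of branched-chain amino acids described in thermogenic fat, read 7.63, 7.81 and 7.82 in WT and 8.95, 8.89 and 8.75 in Zip13-KO, a change of 1.11 (SE 0.09, adjusted p = 0.00418). Its second probe, named for another transcript (NM_001145877), had a change of only 0.11, from 8.33, 7.93 and 7.78 to 8.17, 7.98 and 8.21, and overlapped between genotypes. The rise of Slc25a44 was thus seen by 1 of its 2 probes, which was the dimmer of them in WT (mean 7.75 against 8.01) and the brighter in Zip13-KO. The mean of both probes gave 0.61 (limma adjusted p = 0.00671).

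Slc25a22 (NM_026646), a mitochondrial glutamate carrier, gave 9.95, 10.70 and 10.39 in WT and 11.34, 11.20 and 11.21 in Zip13-KO, with no overlap and a change of 0.90 (SE 0.19, adjusted p = 0.017). Slc25a10 (NM_013770), the dicarboxylate carrier, gave 9.46, 10.38 and 10.24 in WT and 10.93, 10.97 and 10.89 in Zip13-KO, a change of 0.90 (SE 0.24, adjusted p = 0.0327). Its WT arrays spread over as much as the genotypes differed, whereas its Zip13-KO arrays lay close together. Leaving out 1 array ended several of these calls without turning a direction. Without Zip13-KO replicate 1 the adjusted p of Slc25a1 was 0.0507 (change 1.60), that of Slc25a22 was 0.0638 (0.85) and that of Slc25a10 was 0.094 (0.90), and without replicate 2 it was 0.0551 for Slc25a22 (0.93) and 0.0952 for Slc25a10 (0.88). Without Zip13-KO replicate 3 the adjusted p of Slc25a10 was 0.08 (0.92), and with the replicate number as a block it was 0.0537.

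The aspartate/glutamate carriers, calcium-regulated parts of the malate-aspartate shuttle that brings reducing equivalents into the mitochondrion, went down together. Slc25a12 (NM_172436), also called aralar, read 10.89, 10.67 and 10.73 in WT and 9.85, 9.95 and 9.99 in Zip13-KO, and fell by 0.83 (SE 0.09, limma adjusted p = 0.00489). Slc25a13 (NM_015829), citrin, the carrier called lower whose promoter holds an E-box, read 7.20, 7.18 and 7.08 in WT and 6.29, 6.57 and 6.30 in Zip13-KO. It fell by 0.77 (SE 0.10, adjusted p = 0.00667), and neither carrier overlapped between genotypes. The third member of that shuttle here, the oxoglutarate carrier Slc25a11, had higher values in Zip13-KO by an amount too small to be called, from 13.03, 13.17 and 13.20 to 13.47, 13.53 and 13.50 (change 0.36, SE 0.08, adjusted p = 0.0177). The difference between the changes of Slc25a12 and Slc25a13 was -0.07 within arrays, with overlap (exact two-sided permutation p = 0.6, adjusted over 7 pairs 0.6). Under normexp or no background correction, and in the deposited values table, the change of Slc25a13 was -0.47, -0.53 and -0.52, short of the fold threshold, and the difference between both carriers grew to -0.33, -0.28 and -0.28 (exact permutation p = 0.1 each, the smallest possible).

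The other amino acid carriers tested were not called. Slc25a29, which carries basic amino acids, had a change of 0.29 (limma adjusted p = 0.237), Slc25a38, a glycine carrier needed for haem synthesis, one of 0.27 (adjusted p = 0.0937) and the ornithine carrier Slc25a15 one of 0.16 (adjusted p = 0.557). The Zip13-KO arrays of Slc25a38 lay above all WT arrays, while those of Slc25a29 and Slc25a15 overlapped them. Slc25a18, the second glutamate carrier, and Slc25a2, the second ornithine carrier, were not well above background on any array, and Slc25a21, the oxodicarboxylate carrier, was so on 1 Zip13-KO array.

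The carriers of cofactors, vitamins, metals and glutathione were all tested, with a median change of 0.57. Of the 12, 6 were called higher (50%) and 1 lower (8.33%), against 10.3% and 8.38% of all genes. Slc25a42 (NM_001007570), a coenzyme A carrier, read 10.22, 10.47 and 10.63 in WT and 11.69, 11.90 and 11.91 in Zip13-KO, a change of 1.39 (SE 0.13, 2.63-fold, limma adjusted p = 0.00441). Slc25a16 (NM_175194), also linked to coenzyme A, read 7.73, 8.21 and 8.00 in WT and 8.69, 8.70 and 8.78 in Zip13-KO, a change of 0.74 (SE 0.13, adjusted p = 0.0111). Both were higher on every Zip13-KO array than on any WT array.

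Slc25a26 (NM_026255), which brings the methyl donor S-adenosylmethionine into the matrix, read 9.06, 9.40 and 9.44 in WT and 10.22, 10.23 and 10.03 in Zip13-KO, a change of 0.86 (SE 0.13, limma adjusted p = 0.00771). Slc25a39 (NM_026542), needed for glutathione import, read 9.27, 9.47 and 9.43 in WT and 10.06, 10.14 and 9.97 in Zip13-KO, a change of 0.66 (SE 0.09, adjusted p = 0.0067). The NAD+ carrier Slc25a51 (NM_001009949) gave 11.15, 11.38 and 11.28 in WT and 11.90, 12.03 and 11.85 in Zip13-KO, a change of 0.66 (SE 0.09, adjusted p = 0.00709). The genotypes were apart for each of the 3, and the second probes of Slc25a26 and Slc25a51 gave 0.65 and 0.74.

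The carrier of this group that fell imports iron. Slc25a37 (NM_026331), mitoferrin-1, the iron importer best known from red cell precursors, read 11.78, 11.69 and 12.17 in WT and 11.25, 11.21 and 11.35 in Zip13-KO, and fell by 0.61 (SE 0.14, limma adjusted p = 0.0215). Its second probe gave -0.35, and the mean of both probes -0.48, under the fold threshold. The call was also lost without WT replicate 3 (-0.46, adjusted p = 0.0218) and without Zip13-KO replicate 1 (-0.60, 0.0732), replicate 2 (-0.58, 0.0745) or replicate 3 (-0.65, 0.0512). The 6 red blood cell markers tested had lower values on every Zip13-KO array, with 2 called lower, Alas2 among them, and a summed intensity of 407584 to 522630 in WT and 320899 to 390421 in Zip13-KO. Their part in the fall of Slc25a37 was not tested. Slc25a28, mitoferrin-2, the form of most other tissues, had a change of -0.11 (adjusted p = 0.274) with all Zip13-KO arrays below all WT arrays.

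Of the rest of this group, Slc25a32, a folate and FAD carrier, had a change of 0.49 (limma adjusted p = 0.0222) and the peroxisomal carrier Slc25a17 one of 0.39 (adjusted p = 0.0289), both under the fold threshold. Slc25a32 passed that threshold without WT replicate 3 (0.60, adjusted p = 0.0105). Slc25a40, a relative of Slc25a39, had a change of 0.20 (adjusted p = 0.0965). Slc25a53, a relative of Slc25a51, had a change of -0.60 with overlap (adjusted p = 0.153), its second probe gave -0.93 with no Zip13-KO array well above background, and the mean of both was called lower (-0.76, adjusted p = 0.0362).

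Among the carriers of nucleotides, phosphate and energy, 8 of 11 were tested, with a median change of 0.35. Of those tested, 2 were called higher (25%) and 1 lower (12.5%), against 10.3% and 8.38% of all genes. Slc25a33 (NM_027460), which imports pyrimidine nucleotides for mitochondrial DNA and RNA synthesis, read 9.17, 9.28 and 9.93 in WT and 10.61, 10.71 and 10.71 in Zip13-KO, a change of 1.22 (SE 0.20, limma adjusted p = 0.00993). Its second probe gave 1.33, and among the windows printed above its E-box lies closest to the start site. The related Slc25a36, whose window also holds an E-box, had a change of 0.09 (adjusted p = 0.451). The ATP-Mg/phosphate carriers split. Slc25a23 (NM_025877) gave 6.70, 6.89 and 7.18 in WT and 8.04, 8.26 and 7.70 in Zip13-KO, a change of 1.08 (SE 0.18, adjusted p = 0.0104). Slc25a24 (NM_172685) gave 10.31, 10.05 and 9.67 in WT and 9.17, 9.06 and 9.20 in Zip13-KO, and fell by 0.87 (SE 0.17, adjusted p = 0.0132), with WT replicate 3 nearest to the Zip13-KO arrays. Without Zip13-KO replicate 2 the adjusted p of Slc25a24 was 0.0523 (-0.83). Slc25a25 had a change of 0.43 with overlap (adjusted p = 0.231), and Slc25a41 was well above background on 2 WT arrays and no Zip13-KO array and was not tested.

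The carriers with the broadest role in energy supply were not called. The ADP/ATP carrier Slc25a4 (ANT1) read 14.34, 14.50 and 14.27 in WT and 14.67, 14.65 and 14.58 in Zip13-KO, a change of 0.26 (SE 0.09, limma adjusted p = 0.0615). Slc25a5 (ANT2) read 12.84, 13.05 and 13.11 in WT and 13.41, 13.42 and 13.39 in Zip13-KO, a change of 0.41 (SE 0.09, adjusted p = 0.0201). The phosphate carrier Slc25a3, which feeds ATP synthase, gave 13.42, 13.50 and 13.53 in WT and 13.77 on each Zip13-KO array, a change of 0.28 (SE 0.07, adjusted p = 0.0261), and 0.53 by its second probe. All 3 were higher on every Zip13-KO array, by less than the fold threshold. Slc25a31 (ANT4), known from testis, and Slc25a54 were not well above background on any array.

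The UCP-like carriers Slc25a14, Slc25a27 and Slc25a30 had changes of -0.08, 0.07 and -0.19, and none passed the test (limma adjusted p from 0.268 to 0.541). The family members that carry other names were not counted among the 46. Ucp1, the hallmark gene of brown and beige adipocytes, read 10.68, 8.20 and 9.42 in WT and 13.19, 15.50 and 15.07 in Zip13-KO, a change of 5.16 (SE 0.82, adjusted p = 0.00883). Ucp2 and Ucp3 fell by 0.81 and 0.66 (adjusted p = 0.0116 and 0.0115). The acylcarnitine carrier Slc25a20 changed by 1.30 (adjusted p = 0.00444) and the outer membrane protein Mtch2 by 0.72 (adjusted p = 0.0106), whereas Mtch1 had a change of 0.15 and was not called (adjusted p = 0.244).

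Among the 7 carriers whose substrate is less settled, 3 were called higher (42.9%) and 2 lower (28.6%), against 10.3% and 8.38% of all genes. These calls include Slc25a48 and Slc25a43, which passed the filter only through the genotype in which they were higher. The median change was 0.53, the value of Slc25a34, which was not called. Slc25a48 (NM_177809), a dim probe, read 2.20, 2.24 and 3.86 in WT and 5.40, 5.47 and 4.39 in Zip13-KO, a fitted change of 2.32 (SE 0.53, limma adjusted p = 0.021). It was well above background on 1 WT array and on all Zip13-KO arrays, so the size of its change rests on WT values near background. Its change was 0.51 under normexp, 0.62 without background correction and 0.63 in the deposited values. The call was lost without WT replicate 1 (2.03, adjusted p = 0.0514), WT replicate 2 (2.05, 0.0574), Zip13-KO replicate 1 (2.16, 0.0741) or Zip13-KO replicate 2 (2.12, 0.0719), and with the replicate number as a block (0.068). Slc25a35 (NM_028048) read 9.38, 10.09 and 10.17 in WT and 11.08, 11.12 and 10.94 in Zip13-KO, a change of 1.17 (SE 0.22, adjusted p = 0.0123). Slc25a47 (NM_001012310), known as a liver carrier, read 7.00, 6.98 and 7.09 in WT and 7.81, 7.57 and 7.51 in Zip13-KO, a change of 0.61 (SE 0.10, adjusted p = 0.00973). Both were apart between genotypes, though Slc25a47 fell short of the fold threshold without Zip13-KO replicate 1 (0.52) and under normexp (0.42), no background correction (0.50) and the deposited values (0.50).

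Slc25a45 (NM_134154) read 9.89, 9.67 and 9.49 in WT and 9.05, 9.00 and 9.03 in Zip13-KO, and fell by 0.65 (SE 0.11, limma adjusted p = 0.0109), and by 0.55 without WT replicate 1, under the fold threshold. Slc25a43 (NM_001085497) read 4.22, 4.69 and 3.92 in WT and 3.56, 2.96 and 2.59 in Zip13-KO, where it was not well above background on any array. Its fitted change was -1.24 (SE 0.30, adjusted p = 0.025), and its size rests on Zip13-KO values near background. It was 1.48-fold lower with each Zip13-KO value raised to the lowest signal well above background on that array where it was below it. The call of Slc25a43 was lost without WT replicate 1 (-1.26, adjusted p = 0.0522), WT replicate 2 (-1.03, 0.0604), Zip13-KO replicate 2 (-1.20, 0.079) or Zip13-KO replicate 3 (-1.01, 0.0646). Its change was only -0.19 under normexp, and -0.29 both without background correction and in the deposited values. Slc25a46, a protein of the outer membrane, had a change of 0.38 (adjusted p = 0.0179), under the fold threshold. Slc25a34 had the largest standard error of the carriers tested, with 7.77, 8.12 and 6.61 in WT against 7.04, 9.07 and 7.97 in Zip13-KO (change 0.53, SE 0.60, adjusted p = 0.523).

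**Figure D2:**
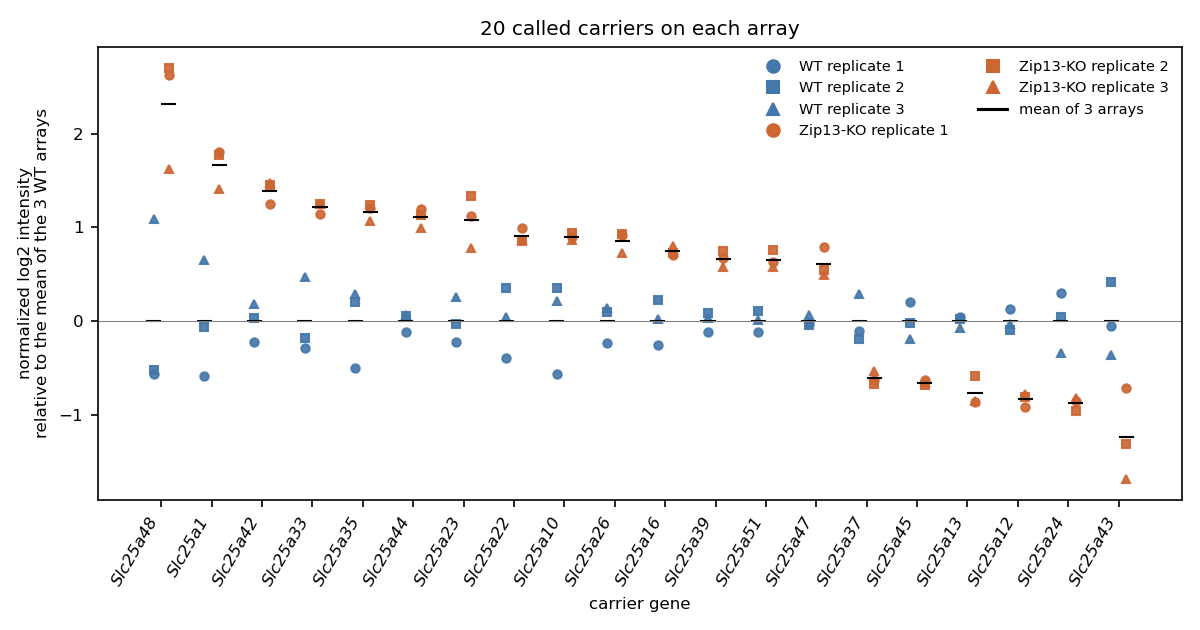
Normalized log2 intensity of 20 of the called carriers (x axis) on each array, relative to the mean of the 3 WT arrays (y axis), with 1 symbol for each replicate and short lines at the means. No WT point reaches a Zip13-KO point of the same gene, and WT replicate 1 is the lowest WT array in 13 of the 14 carriers called higher that are shown.

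The WT arrays differed more among themselves than the Zip13-KO arrays did. The SD was larger in WT for 30 of the 40 carriers, and its median was 0.20 in WT and 0.085 in Zip13-KO, against 0.16 and 0.10 over all genes. Relative to the WT mean, the median carrier stood at -0.12, 0.03 and 0.07 on the 3 WT arrays and at 0.35, 0.44 and 0.38 on the Zip13-KO arrays. For the carriers called higher, WT replicate 1 was the lowest WT array in 14 of 15 and WT replicate 3 the highest in 10. For those called lower, WT replicate 1 was the highest WT array in 4 of 6 and WT replicate 3 the lowest in 4.

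Pairs of related carriers were compared within each array, which asks whether both changed by the same amount. With 3 arrays against 3 the smallest two-sided p is 0.1, so no pair could pass, and p-values were adjusted over the 7 pairs in which both were tested. The difference between Slc25a33 and Slc25a36 went from 0.85 ± 0.34 in WT to 1.98 ± 0.06 in Zip13-KO (SD, n = 3 each), a shift of 1.13 without overlap (exact permutation p = 0.1, adjusted 0.14). The difference between the mitoferrins Slc25a37 and Slc25a28 went from 0.43 ± 0.21 to -0.06 ± 0.09 (SD, n = 3 each), a shift of -0.50 with the same exact permutation p. Shifts without overlap and with that p also separated Slc25a23 from Slc25a25 (0.65), Slc25a39 from Slc25a40 (0.46) and Slc25a16 from Slc25a42 (-0.65). The shift between Slc25a23 and Slc25a25 was smaller under normexp (0.36), without background correction (0.44) and in the deposited values (0.45), with an exact permutation p of 0.3 each, and was 0.38 without WT replicate 2 (exact permutation p = 0.2). For Slc25a4 and Slc25a5 the shift was -0.15 and the genotypes overlapped (exact permutation p = 0.4, adjusted 0.467).

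**Figure D3:**
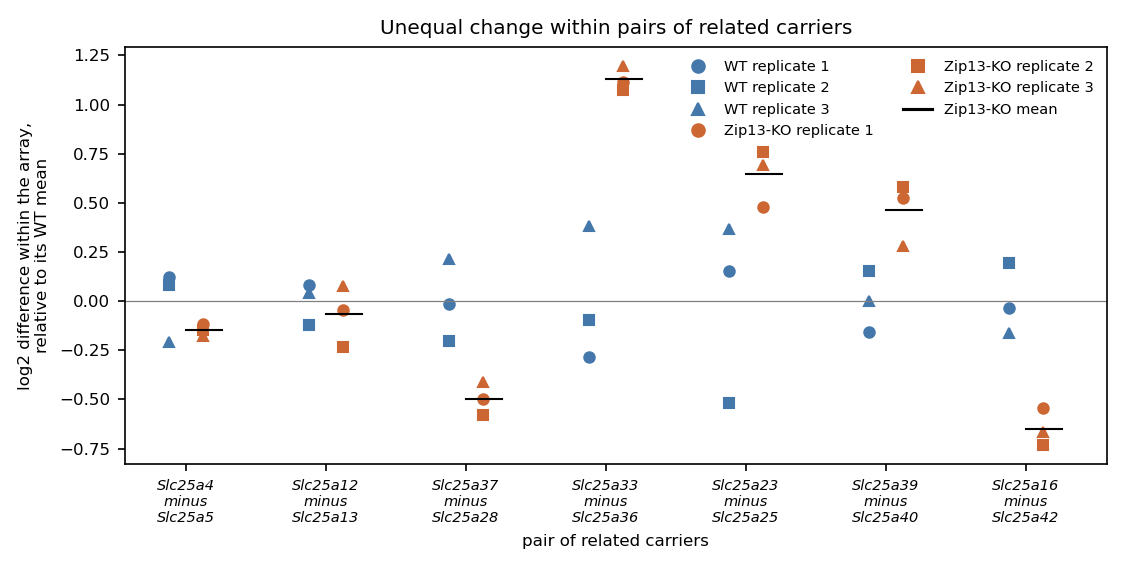
Difference between the log2 values of 2 related carriers on the same array, relative to its WT mean (y axis), for 7 pairs (x axis), with 1 symbol for each replicate and a line at the Zip13-KO mean. The genotypes are apart in 5 pairs, most widely for Slc25a33 minus Slc25a36 (1.13), and overlap for Slc25a4 minus Slc25a5 and Slc25a12 minus Slc25a13.

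Transporters of the mitochondrial membranes outside the family also had more calls up than down. Of a list of 28, all tested, 10 were called higher and 2 lower, with 21 above 0 and a median change of 0.36. That is 35.7% higher and 7.14% lower, against 10.3% and 8.38% of all genes. The 28 include Tmem175, a lysosomal channel and not a mitochondrial one, which had a change of 0.18 and was not called (limma adjusted p = 0.164). The pyruvate carrier subunits Mpc1 and Mpc2, which admit the end product of glycolysis, changed by 1.11 and 1.16 (limma adjusted p = 0.0103 and 0.00739). The outer membrane channel Vdac1 changed by 0.60 (adjusted p = 0.00856) and the cation exchanger gene Letm1 by 0.84 (adjusted p = 0.018). The ABC transporters Abcb6, Abcb8 and Abcb10 and the sideroflexins Sfxn1, Sfxn4 and Sfxn5, of which Sfxn1 carries serine, changed by 0.59 to 0.94. Mcub, which encodes the inhibitory subunit of the calcium uniporter, fell by 1.40 (adjusted p = 0.0158), and Sfxn3 fell by 0.88 (adjusted p = 0.0137).

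Markers of several cell types were called on the same arrays, where 10.3% of all genes were called higher and 8.38% lower. All 10 brown and beige adipocyte markers were called higher, with a median change of 2.22 and a summed intensity of 37010 to 59887 in WT and 166370 to 256370 in Zip13-KO, and WT replicate 3 held the highest WT sum. Of 12 macrophage markers 10 were called lower, and their sum ran from 136467 to 213442 in WT and from 61946 to 80520 in Zip13-KO, with WT replicate 1 the highest. Of 10 stromal progenitor and fibroblast markers 3 were called lower (Dpp4, Ly6a and Pdgfra). The sum of the 10 was 288763 to 646128 in WT, again highest in WT replicate 1, and 250566 to 308784 in Zip13-KO, with overlap. Of 10 general adipocyte markers 3 were called higher (Lipe, Plin1 and Pparg), with a sum of 582801 to 769795 in WT and 865542 to 906617 in Zip13-KO, and 10 of 10 were well above background on every array.

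Lymphocyte markers had 1 of 10 called lower (Ptprc), a share near that of all genes, with sums of 51768 to 63025 in WT and 39407 to 42766 in Zip13-KO. Endothelial markers had 2 of 10 called higher (Cdh5 and Cldn5), with sums of 34833 to 38145 and 44185 to 48114. None of 13 skeletal muscle markers was called and their sums overlapped, from 2842 to 5735 in WT and from 3476 to 12421 in Zip13-KO. None of the 5 mammary epithelium markers tested was called, with sums of 191 to 461 and 215 to 552. The milk protein genes Csn2, Csn3 and Wap did not pass the filter on dim probes. A further milk protein gene, Lalba, passed it, with a mean of 6.74 in each genotype.

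**Figure D4:**
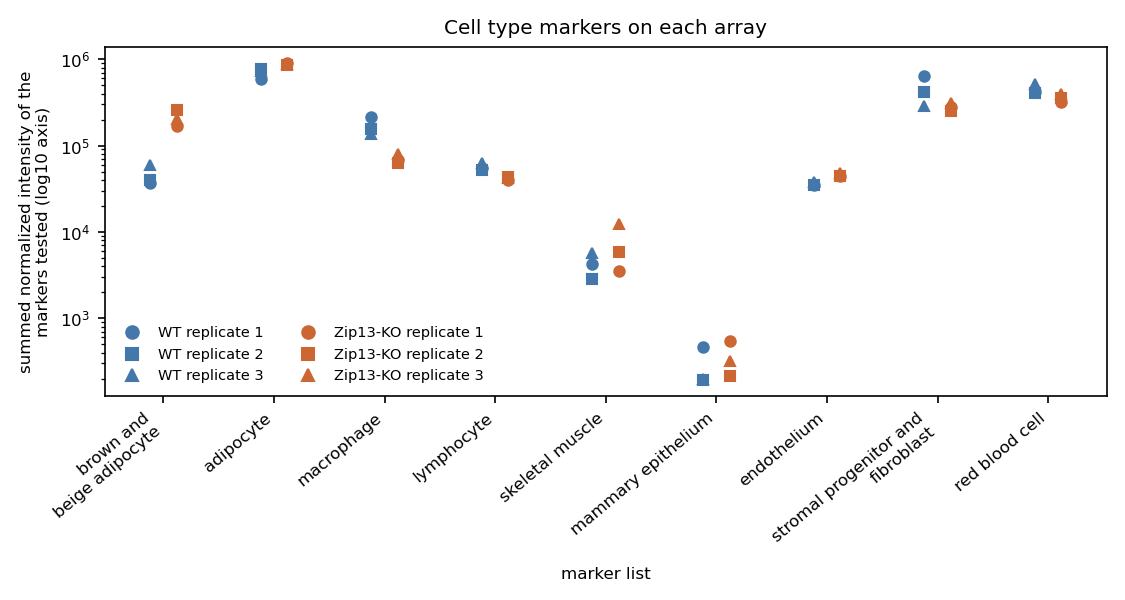
Summed normalized intensity of the tested markers of 9 cell type lists (x axis) on each array (y axis, log10 axis), with 1 symbol for each replicate. Brown and beige adipocyte sums are higher on all Zip13-KO arrays (166370 to 256370, against 37010 to 59887 in WT), and macrophage sums are lower. The sums of stromal progenitor and fibroblast, skeletal muscle and mammary epithelium markers overlap.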

How the data were processed

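Total RNA from iWAT of WT and Zip13-KO mice, 3 samples each by the labels, was labelled with Cy3 and hybridised to Agilent SurePrint G3 mouse arrays. Per the file headers, the deposited scanner files come from Feature Extraction 11.5.1.1 with an mm9 design annotation, and hold spot intensity, local background and background-subtracted processed intensity, not normalized between arrays. The deposited values table holds log2 values that the authors quantile normalized from the median spot signal (rank correlation 1).

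Here, control and outlier spots were left out, spots of a probe were averaged, and log2 processed intensity was quantile normalized. Probes had to be well above background on all 3 arrays of a genotype (33046 of 55681). Names came from the unversioned RefSeq accession in the GRCm38.p6 table (28331 probes matched), and the brightest kept probe stood for a gene. All 15306 genes were fitted with limma 3.58.1 (lmFit, eBayes) in R 4.3.3, with Benjamini-Hochberg adjustment over all of them. The methods' own combined test is not fully described, so limma was used and their t-test was an alternative. The fit was tested on simulated data. Every carrier is named, those called with the value of each array, except 1 that is counted but not reported here. Slc25a20 was set apart by the rule that chose the carriers. The carriers, role groups, pairs and lists were chosen with earlier results of these data known, so no list was tested as a set. Alternatives covered scaling, background, filter, probe choice, test, blocks and left-out arrays.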

Additional observations from a re-analysis of the deposited data

How the results depend on the processing

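Beside the 15 carriers called higher and 6 lower, the counts were 15 and 5 with each array scaled to its 75th percentile, 13 and 3 after normexp, 14 and 3 without background correction, 14 and 4 in the deposited values, 14 and 5 both with no filter and with a filter on all 6 arrays, 15 and 6 with the mean of a gene's probes or a trended robust prior, 21 and 6 by adjusted p alone, and 15 and 6 by the methods' t-test unadjusted or 11 and 4 adjusted. The adjusted t-test lost Slc25a1, Slc25a10, Slc25a22, Slc25a37, Slc25a43 and Slc25a48, the 75th percentile lost Slc25a37 (-0.54), and no filter lost Slc25a10 and Slc25a43 (adjusted p = 0.0641 and 0.0522), with no change of direction. With the slide column as a block they were 0 and 0, and Slc25a14 (0.063) and Slc25a34 (-0.46), neither called, changed sign. Leaving out 1 array gave 10 to 16 higher and 3 to 5 lower. The median change of the carriers was 0.31 to 0.41 with 1 array left out and 0.46 under the 75th percentile. Over all genes, 1576 were called higher and 1282 lower, 2951 and 2330 by adjusted p alone, 1007 and 721 by the adjusted t-test, 955 and 767 with Zip13-KO replicate 1 left out, 1016 and 784 when it was Zip13-KO replicate 2, and 0 and 7 with the slide column. The share called higher among called genes stayed between 51.7% and 59.3% apart from that fit. The difference between the changes of Slc25a12 and Slc25a13 ran from -0.14 to 0.022 with 1 array left out, was above 0 when that array was Zip13-KO replicate 2, and was -0.023 under the 75th percentile, -0.33 under normexp and -0.28 without background correction and in the deposited values. Of the shifts of other pairs, that of Slc25a23 and Slc25a25 moved by over 1.5 times, to 0.36 under normexp and 0.38 without WT replicate 2, and that of Slc25a4 and Slc25a5 from -0.15 to -0.25 without WT replicate 3 and to -0.088 without WT replicate 1. The causes of these shifts were not tested, except that fewer arrays or an added block leave fewer residual degrees of freedom. A block on slide or scan was not run, since there was 1 of each.

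With the replicate block 13 carriers were called higher and 6 lower, and 1278 and 1051 genes. The deviations of same-numbered arrays correlated at -0.02, 0.04 and -0.08, and no array correlated best with the array of its own number. The study describes the WT mice as littermates of the Zip13-KO mice, and the labels do not say whether the numbers pair them. With 3 arrays of each genotype, these correlations cannot decide it. Signal over background limits Slc25a43, Slc25a48 and the 6 carriers not tested.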

Other observations

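Carriers that lie next to each other in the genome, with no coding gene between them in the GRCm38.p6 table, formed 4 pairs. In 2 of them both carriers were tested, and they did not share a call. Slc25a43, called lower, neighbours Slc25a5 on chromosome X, which had a change of 0.41 and was not called. Slc25a47, called higher, neighbours Slc25a29 on chromosome 12, which had a change of 0.29 and was not called. Slc25a23, called higher, neighbours Slc25a41 on chromosome 17, and Slc25a24, called lower, neighbours Slc25a54 on chromosome 3, and these neighbours were not tested because they were not well above background on all arrays of either genotype.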
